A study of Mus musculus with 12 samples.

Results

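The genes described here were 10 genes of the YAP pathway, the coactivators *Yap1* and *Wwtr1*, their DNA-binding partner *Tead1*, and *Ctgf*, *Cyr61*, *Ankrd1*, *Amotl2*, *Axl*, *Ajuba* and *Lats2*. They were taken by their symbols from a table of 24411 genes measured in mouse liver, and the choice was made with earlier results of these data known. All 10 were in the table, and all 10 passed the filter on low counts that left 13922 genes for testing. The filter asked for a minimum in as many mice as a genotype had, and *Ankrd1*, the rarest of the 10, met that minimum in all 3 *Atg7*-KO mice but in only 1 cont. mouse and 2 mice of the third genotype, *Atg7*-KO;*p62* T352A. The 10 are a mixture of regulators and targets. *Yap1*, *Wwtr1* and *Tead1* encode the transcription machinery itself, and *Lats2*, *Amotl2* and *Ajuba* encode regulators of it.

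YAP (*Yap1*) and TAZ (*Wwtr1*) are transcriptional coactivators that have no DNA-binding domain and act in the nucleus through the TEAD factors. The Hippo kinase cascade restrains them: the kinases MST1 and MST2 activate LATS1 and LATS2, which phosphorylate YAP and TAZ, so that they stay in the cytoplasm or are degraded. In the liver this pathway is known for its control of organ size and of the choice between hepatocyte and bile duct fates. Activity of YAP and TAZ depends largely on phosphorylation and location of the proteins, neither of which RNA levels measure.

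Poly(A) RNA was sequenced from livers of 3 genotypes with 3 mice each, at 3 months of age and on a C57BL/6 background, each library from 1 mouse. The cont. mice were *Atg7* flox/flox, the *Atg7*-KO mice were *Atg7* flox/flox;Alb-Cre, and the third genotype, *Atg7*-KO;*p62* T352A, joined *Atg7* flox/flox;Alb-Cre to p62 T352A on both alleles and is called knock-in below. Both copies of *Atg7*, which encodes an enzyme needed to form autophagosomes, were therefore floxed in every mouse, and no group had an unfloxed *Atg7*. The albumin promoter drives Cre in hepatocytes, so the other cells of the liver keep *Atg7*, whereas the knock-in allele changes p62, the autophagy receptor encoded by *Sqstm1*, in every cell that makes it. This p62 mutant does not hold KEAP1, the inhibitor of the transcription factor NRF2, in p62 bodies. Libraries held between 9671073 counts (cont. mouse 3) and 23285134 counts (cont. mouse 1). Levels are given below as counts of a gene per 1000000 counts of its library, scaled by the TMM method (normalized CPM).

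*Atg7* checked the Cre genotype. Its normalized CPM were 46.4, 44.2 and 55.4 in the cont. mice, 10.1, 9.57 and 12.0 in the *Atg7*-KO mice, and 29.7, 27.4 and 29.5 in the knock-in mice. The 3 groups did not overlap, and both Cre groups were lower than cont., but *Atg7* was 2.73-fold higher in knock-in than in *Atg7*-KO mice (edgeR's quasi-likelihood test, adjusted p = 0.000164). Counts per gene do not separate the floxed exon from the rest of *Atg7*, and RNA of cells without Cre is included. In the paper's immunoblots, ATG7 protein was nearly absent from livers with Cre, with or without the p62 mutation. The cause of the difference in *Atg7* RNA was not tested. *Sqstm1*, itself an NRF2 target, stood at 505, 341 and 314 in cont., 911, 871 and 960 in *Atg7*-KO and 497, 626 and 511 in knock-in mice. *Xist*, the RNA that coats the inactive X chromosome, was at 0.401, 1.35 and 0.643 in the mice numbered 1 of the 3 genotypes and at 373 or more in the other 6. The labels give no sex, and each genotype held 1 mouse with little *Xist*.

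To describe the sequence around their starts, the 250 bases before the RefSeq start site (GRCm38.p6) were searched for GGAATG, the core of the TEAD binding motif, and for its reverse complement CATTCC. Of the 10 genes, 8 had an entry (*Ctgf* and *Tead1* had none), and 7 of the 8 held the letters. The same letters were found in 12.6% of all 32851 promoter windows of this length. A match is a description of the letters and not a bound site, and a part of the promoters in the changes of RNA was not tested. *Ankrd1* and *Ajuba* each held 2 copies, which 1.02% of all windows did, and *Lats2* held none in either of its 2 windows. TGANTCA, the letters that AP-1 factors bind, were in none of the 8 and in 6.75% of all windows. Below are the windows of 4 genes that rose in *Atg7*-KO livers and of *Cyr61*, all 5 on the minus strand and written 5′ to 3′ along the gene, with the motif in capitals.
*Ankrd1*, chr19:36119845-36120094: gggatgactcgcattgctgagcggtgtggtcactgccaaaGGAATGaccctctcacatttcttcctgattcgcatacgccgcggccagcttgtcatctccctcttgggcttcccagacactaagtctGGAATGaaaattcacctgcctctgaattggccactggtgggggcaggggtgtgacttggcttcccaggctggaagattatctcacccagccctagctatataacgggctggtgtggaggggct
*Ajuba*, chr14:54577662-54577911: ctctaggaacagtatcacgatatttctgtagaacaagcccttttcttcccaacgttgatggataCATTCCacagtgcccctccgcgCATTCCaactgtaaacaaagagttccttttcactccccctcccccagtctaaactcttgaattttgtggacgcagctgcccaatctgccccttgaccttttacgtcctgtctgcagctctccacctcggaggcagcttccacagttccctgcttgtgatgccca
*Axl*, chr7:25788734-25788983: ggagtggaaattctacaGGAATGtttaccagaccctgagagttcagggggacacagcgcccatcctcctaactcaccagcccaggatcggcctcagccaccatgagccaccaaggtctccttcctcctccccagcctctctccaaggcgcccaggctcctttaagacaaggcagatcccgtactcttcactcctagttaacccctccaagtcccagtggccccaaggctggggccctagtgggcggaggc
*Wwtr1*, chr3:57575911-57576160: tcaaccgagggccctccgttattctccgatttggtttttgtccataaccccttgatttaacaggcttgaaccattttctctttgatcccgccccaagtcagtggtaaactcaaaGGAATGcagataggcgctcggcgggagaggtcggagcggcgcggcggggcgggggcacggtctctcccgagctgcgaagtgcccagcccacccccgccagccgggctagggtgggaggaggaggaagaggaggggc
*Cyr61*, chr3:145649986-145650235: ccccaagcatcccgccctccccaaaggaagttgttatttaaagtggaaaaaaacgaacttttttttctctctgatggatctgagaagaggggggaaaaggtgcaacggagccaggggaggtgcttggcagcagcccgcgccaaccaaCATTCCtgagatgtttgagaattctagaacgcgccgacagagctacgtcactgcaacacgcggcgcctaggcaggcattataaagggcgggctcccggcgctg
Counted back from the start site, the motif began 210 and 123 bases upstream in *Ankrd1*, 186 and 164 in *Ajuba*, 233 in *Axl*, 136 in *Wwtr1* and 103 in *Cyr61*. The windows of *Yap1* and *Amotl2* held 1 copy each, 141 and 65 bases upstream.

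To see how the YAP pathway genes responded to loss of autophagy in hepatocytes, *Atg7*-KO livers were compared with cont. livers. Of the 10 genes 5, *Wwtr1*, *Ctgf*, *Ankrd1*, *Axl* and *Ajuba*, rose, from 2.71-fold (*Wwtr1*) to 10.3-fold (*Ankrd1*), and none of the 10 fell. Among all genes tested, 21.6% rose and 22.1% fell by the same criteria, an adjusted p under 0.05 in edgeR's quasi-likelihood test and a fold change over 1.5. All 3 *Atg7*-KO mice lay above all 3 cont. mice for 7 of the 10 genes, these 5 with *Lats2* and *Tead1*, and 55.5% of all genes had groups that did not overlap in either direction. The median log2 fold change was 1.11 over the 10 genes and -0.03 over all genes tested. *Yap1*, *Amotl2* and *Cyr61* were the genes whose groups overlapped. Without cont. mouse 3, *Cyr61* and *Tead1* were called higher as well, 7 of the 10 in all, and 20.03% of all genes were then called higher and 17.97% lower.

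To see how these genes stood when p62 could no longer retain KEAP1, knock-in livers were compared with *Atg7*-KO livers. Of the 10 genes 7, *Wwtr1*, *Ctgf*, *Ankrd1*, *Axl*, *Ajuba*, *Lats2* and *Tead1*, were lower with the mutant p62, from 1.64-fold (*Lats2*) to 4.88-fold (*Ctgf*), and none was called higher. Over all genes tested, 26.2% were called lower and 24.7% higher. The groups did not overlap for 8 of the 10 genes, 7 of them lower and *Amotl2* slightly higher, beside 73.2% of all genes. The median log2 fold change was -1.41 over the 10 genes and 0.0021 over all genes. This comparison and the previous one share the *Atg7*-KO mice, so their values are not independent of each other.

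Against cont. livers, none of the 10 genes passed the test in knock-in livers, where 6.25% of all genes were higher and 5.34% lower. *Ctgf* and *Ajuba* had an unadjusted p under 0.05 in edgeR, as did 3920 of all 13922 genes, and DESeq2 called 1 of the 10, *Ctgf*, lower, beside 8.26% of all genes. Without cont. mouse 3, 2 of the 10, *Ankrd1* and *Cyr61*, were called higher, beside 5.66% of all genes higher and 5.77% lower in that fit. The median log2 fold change was -0.09 over the 10 genes and 0.0044 over all genes. The mice of these genotypes did not overlap for 3 of the 10 genes, with *Ajuba* above cont. and *Ctgf* and *Lats2* below it, beside 26.6% of all genes. The interval of a difference, given below for the single genes, shows how large a difference the 3 mice of a group leave possible.

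**Figure D1:**
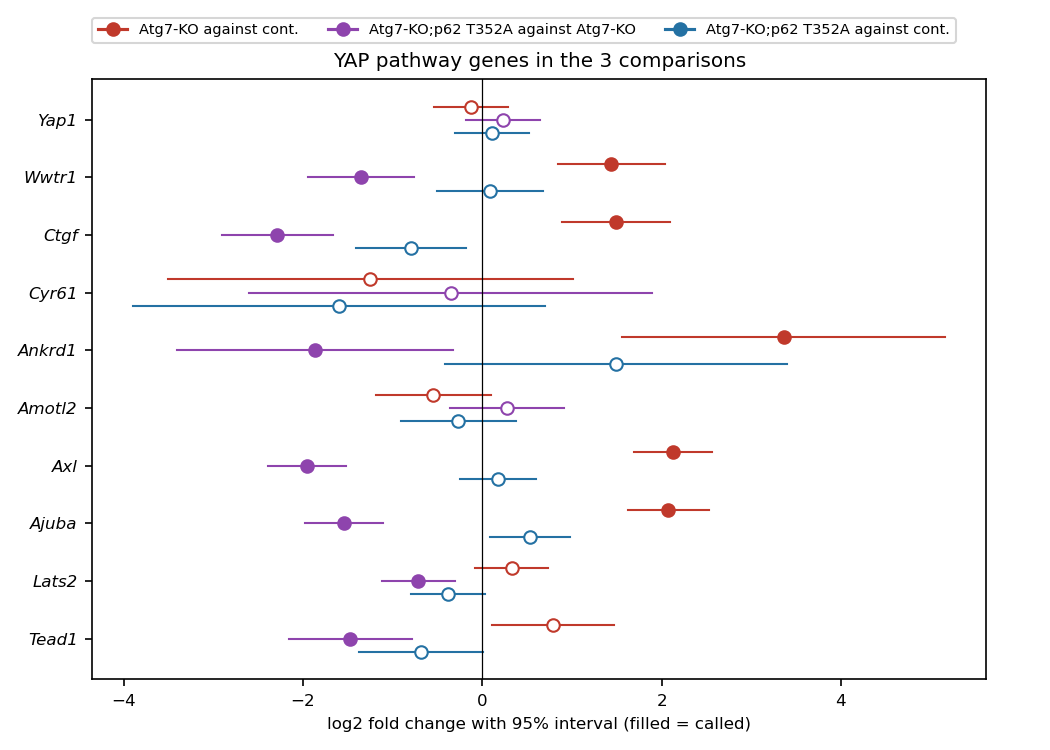
Log2 fold changes (horizontal axis) of the 10 genes in the 3 comparisons, with 95% intervals from edgeR's quasi-likelihood fit over 3 mice per genotype. Filled points passed the test, 5 of 10 between *Atg7*-KO and cont., 7 of 10 between knock-in and *Atg7*-KO, and 0 of 10 between knock-in (*Atg7*-KO;*p62* T352A) and cont. Of all genes tested, 21.6% were called higher and 22.1% lower in the first comparison. The shares were 24.7% and 26.2% in the second and 6.25% and 5.34% in the third.

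The transcription machinery did not move as a block. *Yap1* (chr9:7931999-8004596, GRCm38 here and below) stood at 78.4, 61.8 and 54.3 normalized CPM in cont., 57.8, 60.2 and 60.9 in *Atg7*-KO and 81.3, 60.7 and 68.0 in knock-in mice. The 3 groups overlapped throughout. Between *Atg7*-KO and cont. its log2 fold change was -0.12 with a 95% interval of -0.53 to 0.29, and between knock-in and *Atg7*-KO it was 0.23 with an interval of -0.18 to 0.64. *Wwtr1* (chr3:57455649-57575910), which encodes TAZ, was at 20.3, 10.6 and 13.4 in cont., 42.6, 37.7 and 40.4 in *Atg7*-KO and 19.3, 11.5 and 16.4 in knock-in mice. Every *Atg7*-KO mouse was above every mouse of the other genotypes, while the other 2 genotypes overlapped. Its log2 fold change was 1.44 (SE 0.27, adjusted p = 0.00215) for *Atg7*-KO against cont. and -1.35 (SE 0.26, adjusted p = 0.00233) for knock-in against *Atg7*-KO. Against cont., *Wwtr1* in knock-in mice differed by 0.09, with an interval of -0.51 to 0.68.

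*Tead1* (chr7:112679318-112906807), a TEAD factor through which YAP and TAZ reach DNA, was at 10.5, 17.9 and 24.2 in cont., 26.3, 33.7 and 30.3 in *Atg7*-KO and 8.07, 10.4 and 14.0 in knock-in mice. The *Atg7*-KO mice were the highest 3 of the 9, and the knock-in mice overlapped only the lower part of the cont. range. It was lower in knock-in than in *Atg7*-KO mice, by 1.47 on the log2 scale (SE 0.31, adjusted p = 0.00327). Its difference of 0.79 between *Atg7*-KO and cont. mice (SE 0.30) missed the threshold with an adjusted p of 0.0566. That call depended on the analysis, since 7 alternatives, DESeq2 and the omission of cont. mouse 3 (log2 fold change 1.09) among them, put it past the threshold. Knock-in against cont. mice gave -0.68, with an interval of -1.37 to 0.0031 and an adjusted p of 0.179, and passed the threshold as lower without cont. mouse 1 (-0.95). The cont. mice spread by 39.1% of their mean (coefficient of variation), against 12.2% in *Atg7*-KO mice.

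Of the secreted and nuclear targets, *Ctgf* and *Ankrd1* had the same calls in the 3 comparisons, and *Cyr61* was not called in any with all mice. *Ctgf* (*Ccn2*, chr10:24595442-24598683), a secreted matricellular protein of fibrosis and the target most often used to read YAP activity, was at 10.8, 8.04 and 15.7 in cont., 37.9, 30.5 and 28.2 in *Atg7*-KO and 7.50, 4.90 and 7.38 in knock-in mice. The 3 groups did not overlap, with *Atg7*-KO highest and knock-in lowest. It rose 2.80-fold in *Atg7*-KO (log2 fold change 1.49, SE 0.27, adjusted p = 0.00194) and was 4.88-fold lower in knock-in than in *Atg7*-KO mice (log2 fold change -2.29, SE 0.28, adjusted p = 0.000216). Between knock-in and cont. the log2 fold change was -0.80, with an interval of -1.41 to -0.19 before and an adjusted p of 0.0887 after correction over all genes. That difference passed the threshold in DESeq2 and without cont. mouse 2, where the log2 fold change was -1.06. An RNA on the opposite strand, *Gm15270*, overlaps 23.2% of the exonic bases of *Ctgf*, and since the strand setting of the counting is not given in the sources used here, reads of that stretch cannot be told apart.

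*Ankrd1* (chr19:36111961-36120099), a nuclear ankyrin repeat protein and a direct target of YAP and TEAD, was the rarest of the 10. Its normalized CPM were 0.172, 0.0946 and 1.43 in cont., 5.08, 3.94 and 6.57 in *Atg7*-KO and 0.857, 0.630 and 2.74 in knock-in mice. These rested on 3, 1 and 13 counts in cont., 105, 96 and 154 in *Atg7*-KO and 12, 9 and 42 in knock-in mice. The *Atg7*-KO mice did not overlap either other genotype, and the mice numbered 3 were the highest of each genotype. The log2 fold change was 3.36 (SE 0.81, adjusted p = 0.00794) for *Atg7*-KO against cont. and reached 5.12 without cont. mouse 3. The lower level in knock-in than in *Atg7*-KO mice, -1.87 on the log2 scale (SE 0.69, adjusted p = 0.0434), was the least secure of the 7, since it missed the threshold when any 1 of the *Atg7*-KO mice, or knock-in mouse 1 or 2, was left out. *Ankrd1* was 1.49 higher in knock-in than in cont. mice on the log2 scale, with an interval of -0.41 to 3.40, and passed the threshold without cont. mouse 3 (3.26).

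*Cyr61* (*Ccn1*, chr3:145646976-145649981), the relative of *Ctgf* that serves as an immediate-early gene as well as a YAP target, stood at 4.93, 7.56 and 144 in cont., 17.5, 22.1 and 26.0 in *Atg7*-KO and 11.8, 25.6 and 14.1 in knock-in mice. Cont. mouse 3 was above every other mouse, and the other 2 cont. mice were below every mouse with Cre. The log2 fold change between *Atg7*-KO and cont. was -1.25 with an SE of 1.01, and its interval of -3.51 to 1.01 covers both directions. Without cont. mouse 3 it was 1.81 (SE 0.38) and passed the threshold, and knock-in against cont. went from -1.60 to 1.47 and passed it too. Between knock-in and *Atg7*-KO mice, a comparison without cont. mice, the log2 fold change was -0.35 with an interval of -2.60 to 1.90 from the spread that all genotypes share.

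Cont. mouse 3 also stood apart for the AP-1 factors, the immediate-early transcription factors of the Jun, Fos and ATF families. Its normalized CPM were 692 for *Jun*, 211 for *Fos*, 113 for *Fosb* and 235 for *Atf3*, where cont. mice 1 and 2 had 8.65 and 11.4 for *Jun*, 0.516 and 0.756 for *Fos*, 0.0573 and 0.851 for *Fosb* and 1.26 and 0.946 for *Atf3*. The summed level of the 8 AP-1 genes was 131, 135 and 1913 in the cont. mice, 208 to 250.1 in *Atg7*-KO mice and 235 to 337 in knock-in mice, with *Jund* the most abundant per kilobase in both Cre groups. *Fosl1* was listed with no counts in the 6 mice of the other genotypes and with 16, 16 and 23 in *Atg7*-KO mice, so that it met the filter through the *Atg7*-KO mice alone and is left out of the counts that follow. Of the other 7, *Fosl2* was higher and *Fosb* lower (log2 fold change -5.86) in *Atg7*-KO than in cont. with all mice, beside 21.6% of all genes higher and 22.1% lower, and the median was -2.25. Without cont. mouse 3, *Fosb* was at 0.69 with no call, while *Jun* (2.31), *Atf3* (3.56) and *Fosl2* (1.56) passed the test as higher, beside 20.03% of all genes in that fit, and the median was 1.56. Between knock-in and cont., 0 of the 7 passed with all mice, where 6.25% of all genes were higher and 5.34% lower, with a median of -2.23. That direction also rested on cont. mouse 3, since without it the median was 2.33, and *Jun* (2.33), *Atf3* (3.03) and *Jund* (0.90) were called higher, beside 5.66% of all genes. Between knock-in and *Atg7*-KO mice *Fosl2* was lower, as were 26.2% of all genes, and the median of the 7 was 0.25. Without cont. mouse 3, *Fosl2* was again lower (-1.10), and *Fosb* (2.33) and *Jund* (0.68) were called higher at nearly the same fold changes as with all mice (2.32 and 0.68), beside 25.16% of all genes higher and 27.47% lower. *Gadd45a*, a stress-induced growth arrest gene in the list of further YAP and TAZ targets, followed the same outline, with 2.23, 2.55 and 71.1 in cont. and 3.28 to 10.9 in the Cre groups. The part of cont. mouse 3 in the other genes was not tested beyond leaving it out.

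**Figure D2:**
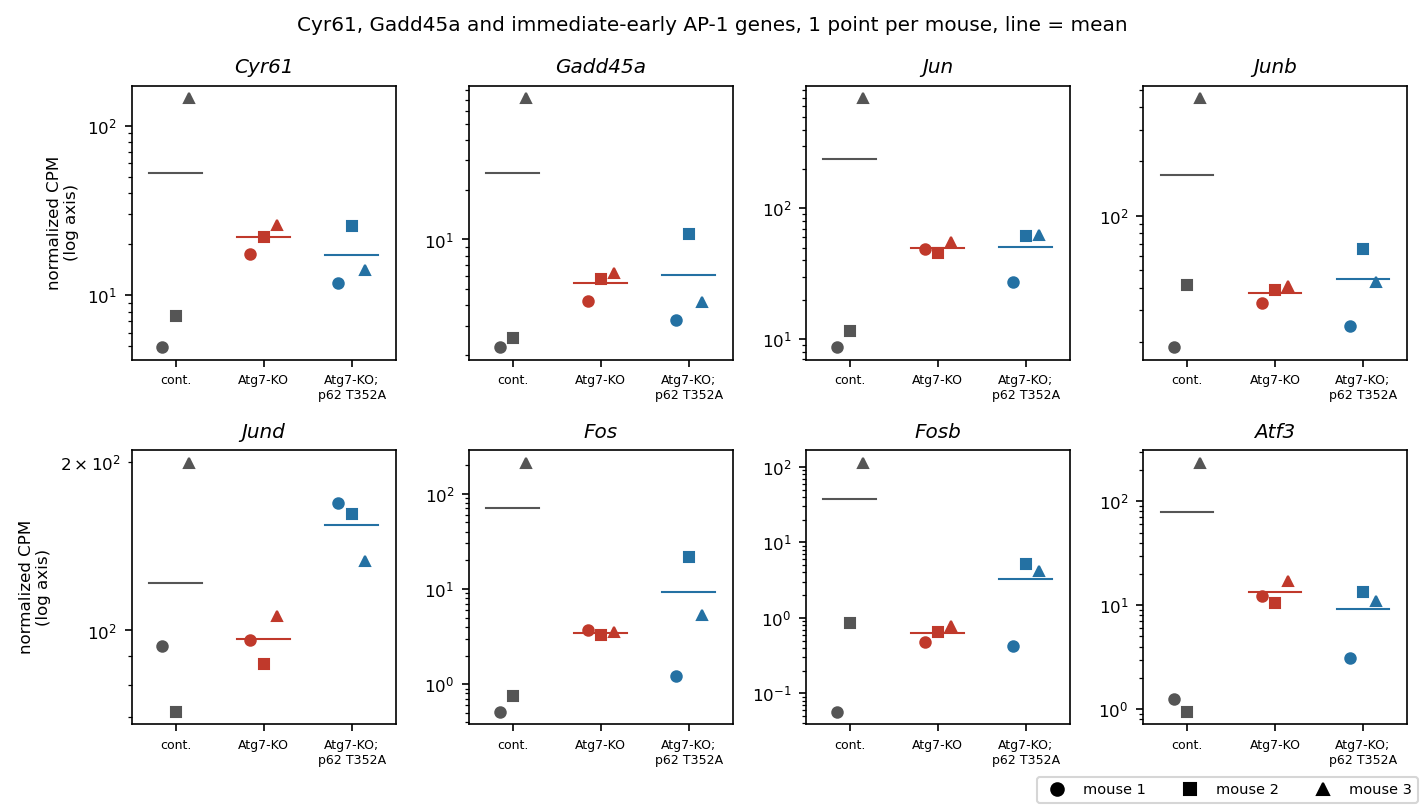
Normalized CPM on log axes of *Cyr61*, *Gadd45a* and 6 AP-1 genes, with 1 point per mouse (circle, square and triangle for mice 1, 2 and 3) and a line at the mean of each genotype. The triangle of cont. mouse 3 lies above all other mice in every panel, at 144 for *Cyr61* and 692 for *Jun*.

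*Axl* (chr7:25757273-25788705), a receptor tyrosine kinase of the TAM family, was at 27.0, 22.7 and 21.1 in cont., 104, 100.3 and 106 in *Atg7*-KO and 22.2, 24.3 and 33.5 in knock-in mice. The *Atg7*-KO mice lay within a few percent of each other (coefficient of variation 2.62%) and far above the other genotypes, which overlapped. *Axl* rose 4.37-fold in *Atg7*-KO (log2 fold change 2.13, SE 0.20, adjusted p = 6.03e-05) and was 3.87-fold lower in knock-in than in *Atg7*-KO mice (log2 fold change -1.95, SE 0.19, adjusted p = 8.92e-05). Against cont. it differed by 0.17 in knock-in mice, with an interval of -0.25 to 0.60.

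*Ajuba*, *Amotl2* and *Lats2* encode proteins that feed back on the pathway. *Ajuba* (chr14:54567472-54577558), a LIM protein that binds and inhibits LATS kinases, was at 6.02, 7.66 and 4.84 in cont., 24.9, 26.5 and 26.8 in *Atg7*-KO and 8.85, 10.1 and 7.83 in knock-in mice. No genotype overlapped another. It rose 4.21-fold in *Atg7*-KO (log2 fold change 2.08, SE 0.20, adjusted p = 7.59e-05) and was 2.92-fold lower in knock-in than in *Atg7*-KO mice (log2 fold change -1.55, SE 0.19, adjusted p = 0.000258). The knock-in mice nevertheless stayed above the cont. mice, by 0.53 on the log2 scale with an interval of 0.08 to 0.98, an adjusted p of 0.116 and hence no call.

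*Lats2* (chr14:57689662-57758388), the kinase that phosphorylates YAP and TAZ, was at 15.1, 16.8 and 16.0 in cont., 19.7, 20.3 and 20.1 in *Atg7*-KO and 12.9, 9.32 and 14.6 in knock-in mice. The groups did not overlap, yet the step from cont. to *Atg7*-KO was 0.33 on the log2 scale, with an interval of -0.08 to 0.73 and an adjusted p of 0.165. *Lats2* was lower in knock-in than in *Atg7*-KO mice by 0.71 on the log2 scale (SE 0.18, adjusted p = 0.00912), and without knock-in mouse 2 the decrease of 0.55 no longer exceeded 1.5-fold. Its value is uncertain, because 42.4% of its exonic bases are also exonic in *Gm49361* on the same strand.

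*Amotl2* (chr9:102716672-102733418), an angiomotin that holds YAP at cell junctions and in the cytoplasm, was at 31.1, 78.8 and 46.6 in cont., 34.6, 34.4 and 38.0 in *Atg7*-KO and 46.6, 39.4 and 43.5 in knock-in mice. The cont. mice spanned the range of both other genotypes, and the log2 fold change between *Atg7*-KO and cont. was -0.55 with an interval of -1.19 to 0.09. Without cont. mouse 1 it was -0.82 and passed the threshold as lower. The knock-in mice were above the *Atg7*-KO mice without overlap, but by 0.28 on the log2 scale with an adjusted p of 0.436.

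**Figure D3:**
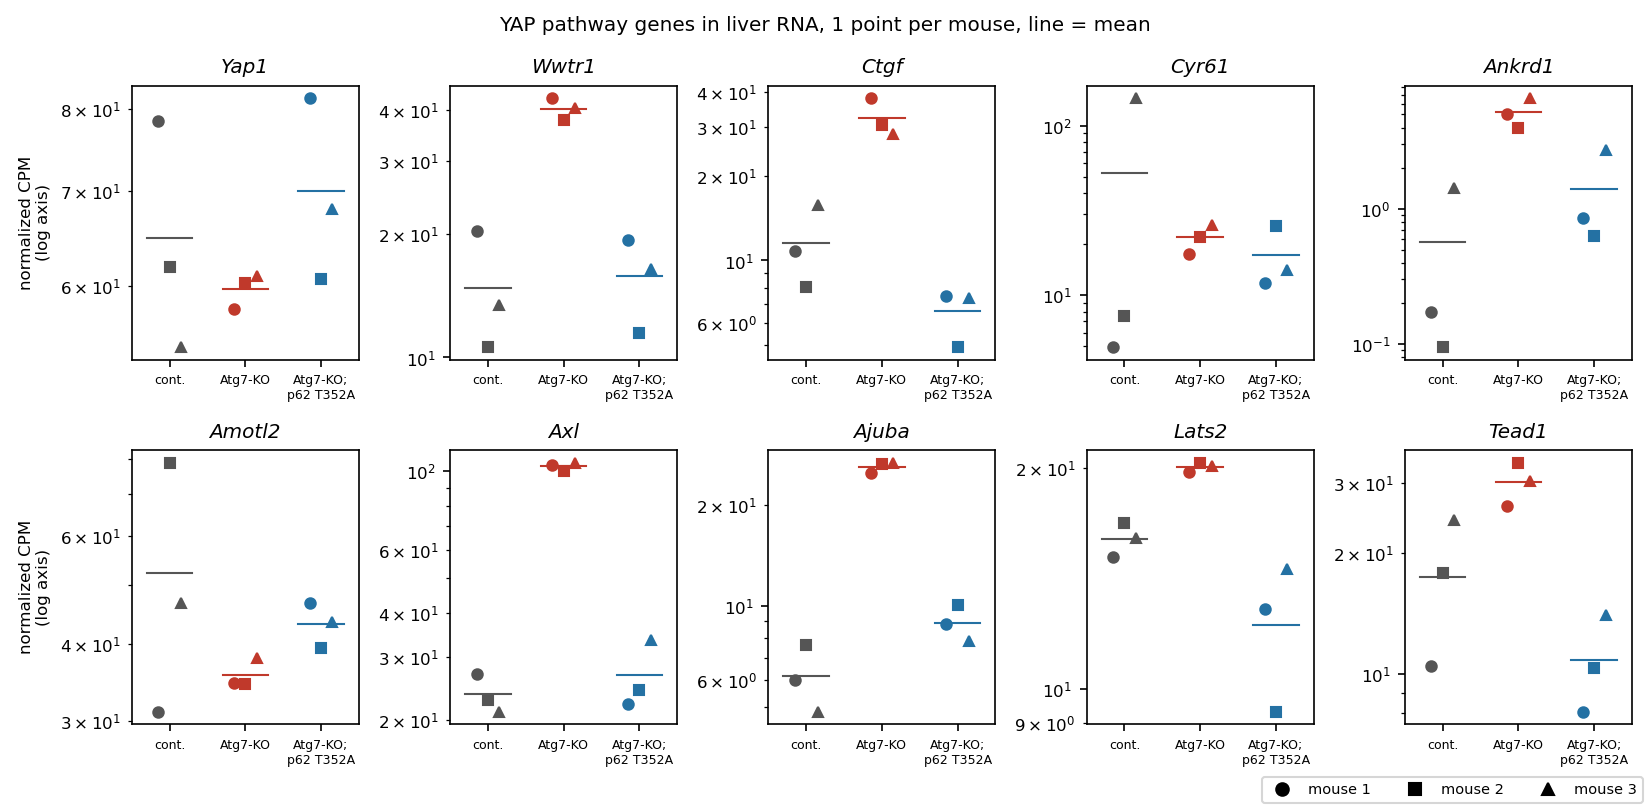
Normalized CPM of the 10 genes on log axes, 1 panel per gene and 1 point per mouse (circle, square and triangle for mice 1, 2 and 3), with a line at the mean of each genotype. *Atg7*-KO mice stand clear of both other genotypes for *Wwtr1*, *Ctgf*, *Ankrd1*, *Axl*, *Ajuba*, *Lats2* and *Tead1*. Groups did not overlap for 55.5% of all genes between *Atg7*-KO and cont. and for 73.2% between knock-in and *Atg7*-KO. *Lats2* and *Tead1* were not called between *Atg7*-KO and cont.

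Compared per kilobase of exon, the order of the levels changed with the genotype. In cont. livers the mean ± SD (n = 3) of normalized CPM per kilobase was 25.9 ± 39.5 for *Cyr61*, 8.29 ± 3.87 for *Amotl2*, 7.00 ± 1.33 for *Yap1*, 4.69 ± 0.605 for *Axl*, 4.02 ± 1.36 for *Ctgf* and 3.09 ± 1.04 for *Wwtr1*. The other 4 were lower, at 2.30 ± 0.122 for *Lats2*, 1.69 ± 0.389 for *Ajuba*, 1.29 ± 0.505 for *Tead1* and 0.196 ± 0.260 for *Ankrd1*. *Cyr61* led through cont. mouse 3 (71.5 per kilobase), since cont. mice 1 and 2 had 2.44 and 3.75, within the range of *Wwtr1* (2.22 to 4.24). Neighbours in that order differed by less than the sum of their SDs except at the steps from *Yap1* to *Axl*, from *Lats2* to *Ajuba* and from *Tead1* to *Ankrd1*. In *Atg7*-KO livers *Axl* led with 20.5 ± 0.538, ahead of *Ctgf* (11.2 ± 1.77) and *Cyr61* (10.8 ± 2.11), which lay within their spread. *Wwtr1* (8.42 ± 0.516) and *Ajuba* (7.15 ± 0.279) stood above *Yap1* (6.44 ± 0.178) and *Amotl2* (5.67 ± 0.322), and *Lats2* (2.88 ± 0.0444), *Tead1* (2.22 ± 0.271) and *Ankrd1* (1.80 ± 0.456) were the lowest. In knock-in livers *Cyr61* (8.49 ± 3.66), *Yap1* (7.56 ± 1.13) and *Amotl2* (6.87 ± 0.574) led within their spread, followed by *Axl* (5.30 ± 1.19). *Yap1* was again above *Wwtr1* (3.29 ± 0.825), and *Ajuba* (2.45 ± 0.310), *Ctgf* (2.30 ± 0.512), *Lats2* (1.76 ± 0.383), *Tead1* (0.798 ± 0.222) and *Ankrd1* (0.488 ± 0.402) were lower.

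The further targets of YAP and TAZ, a list of 16 genes, gave the same comparison on genes outside the 10. *Fjx1* and *Foxf2* had too few counts, and 14 were tested. *Tgfb2*, a transforming growth factor, met the filter through the *Atg7*-KO mice alone, at 5.96 to 8.27 normalized CPM there beside 0.28 to 0.99 in cont. and 0.35 to 0.52 in knock-in mice, so its call was favoured by the filter. Of the other 13, 6 rose and 0 fell in *Atg7*-KO against cont., beside 21.6% and 22.1% of all genes, with a median log2 fold change of 0.62. Without cont. mouse 3 the same counts came with a median of 0.96. *Myof*, the membrane repair protein myoferlin, rose from 2.55 to 2.86 in cont. to 24.8 to 27.6 in *Atg7*-KO mice (log2 fold change 3.30, SE 0.21). *Nt5e*, *Ccdc80*, *Ptpn14*, *Crim1* and *Arhgef17* were the other 5 that rose. In knock-in against *Atg7*-KO, 7 of the 13 were lower and 1 was higher, beside 26.2% and 24.7% of all genes, with a median of -0.88. Against cont., knock-in livers had more *Rbms3* (log2 fold change 1.46) and *Ccdc80* (0.95) and less *Dock5* (-0.67), beside 6.25% and 5.34% of all genes, and the median of the 13 was 0.0097. When only knock-in and cont. mice were fitted, 0 of the 14 passed, in a fit that called 0.385% of all genes. The letters GGAATG were in the windows of 2 of the 10 list genes with a RefSeq entry, *Crim1* and *Ptpn14*, beside 12.6% of all windows. TGANTCA was found in 1 of these 10 genes, *F3*, beside 6.75% of all windows.

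Of the Hippo kinase cascade and its regulators, 18 genes that were all tested, 3 rose and 2 fell in *Atg7*-KO against cont., with a median log2 fold change of 0.25 (0.15 without cont. mouse 3). Among all genes 21.6% rose and 22.1% fell, so the list held no more calls than that background. *Amot*, an angiomotin like *Amotl2*, rose from 3.52 to 8.54 normalized CPM in cont. to 18.8 to 20.3 in *Atg7*-KO mice (log2 fold change 1.74, SE 0.28), and the kinase gene *Map4k4* (1.20, SE 0.23) and the scaffold gene *Frmd6* (0.81, SE 0.26) also rose. The TAO kinase genes *Taok2* (-1.62, SE 0.42) and *Taok3* (-1.11, SE 0.32), which act above MST1 and MST2, fell. The core kinases *Stk3*, *Stk4* and *Lats1* and the adaptor *Sav1* were not called in any of the 3 comparisons. In knock-in against *Atg7*-KO, 3 were higher and 7 lower, beside 24.7% and 26.2% of all genes, with a median of -0.18. Against cont., knock-in livers had less *Mob1a*, the LATS cofactor, at 0.286 to 0.911 normalized CPM beside 2.64 to 16.3 in cont. (log2 fold change -3.80, SE 0.67), less *Wwc1* (-1.76, SE 0.29) and more *Limd1* (0.92, SE 0.19). In that comparison 6.25% of all genes were higher and 5.34% lower. The *Mob1a* counts in cont. mice spread from 24 to 285, and the median of the 18 genes was -0.06. When only these genotypes were fitted, 0 of the 18 passed, beside 0.385% of all genes.

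A list of 4 genes held the other TEAD factors, *Tead2*, *Tead3* and *Tead4*, and the TEAD partner *Vgll4*. *Tead4*, at 22 counts or fewer in every mouse, met the filter through the *Atg7*-KO mice alone and is not counted. *Tead3* fell from 11.6 to 30.2 normalized CPM in cont. to 6.53 to 6.78 in *Atg7*-KO mice (log2 fold change -1.82, SE 0.33), where *Tead1* was at 0.79, and it was the 1 of the remaining 3 genes called in that comparison, beside 21.6% of all genes called higher and 22.1% lower. *Vgll4*, which competes with YAP for TEAD, was lower in knock-in than in cont. mice (-1.75, SE 0.32), as were 5.34% of all genes. Between knock-in and *Atg7*-KO mice, *Tead3* was called higher (1.47, SE 0.32) and *Vgll4* lower (-1.42, SE 0.32), beside 24.7% and 26.2% of all genes. The medians of the 3 genes were -0.33, 0.18 and -0.35 for *Atg7*-KO against cont., knock-in against *Atg7*-KO and knock-in against cont.

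**Figure D4:**
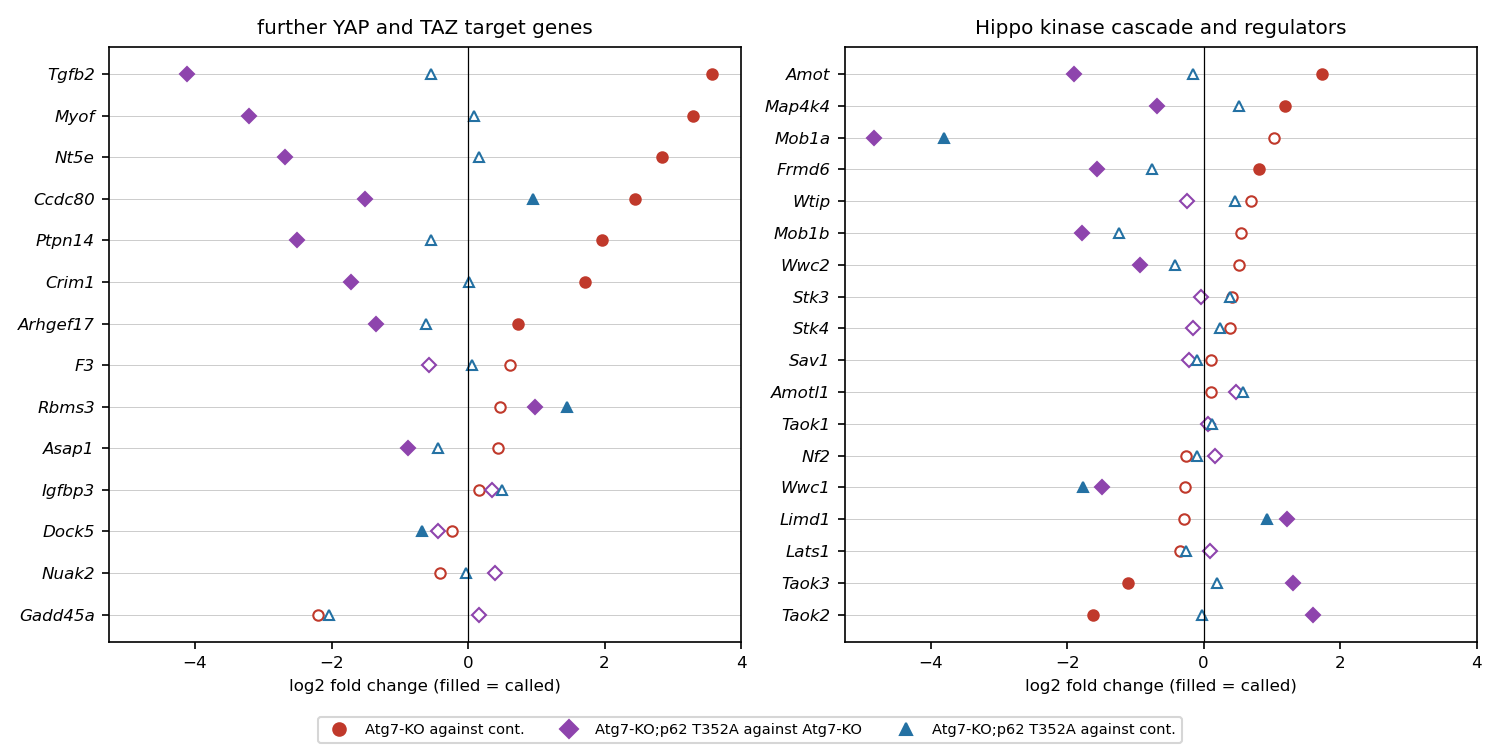
Log2 fold changes (horizontal axis) of the 14 tested further YAP and TAZ targets and the 18 genes of the Hippo cascade, 3 mice per genotype. Filled symbols passed the test. *Tgfb2* is shown but not counted, since it met the filter through the *Atg7*-KO mice alone. In *Atg7*-KO against cont., 6 of the other 13 targets were called higher and 0 lower. Of the Hippo genes 3 rose and 2 fell there, and of all genes tested 21.6% rose and 22.1% fell.

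Over the 9 mice, the genes most like *Ctgf* in log2 CPM were *Rasa2*, *Tnfsf10* and *Rasgrp1*, with Pearson correlations of 0.99, 0.98 and 0.98 among 12819 genes compared. All 3 were highest in *Atg7*-KO and lowest in knock-in mice by their means, as *Ctgf* was, and *Tnfsf10*, the death ligand TRAIL, averaged 7.31, 20.9 and 3.45 normalized CPM in cont., *Atg7*-KO and knock-in mice. The genes most like *Cyr61* were *Jun*, *Atf3* and *Gadd45a* (0.97, 0.97 and 0.97), all of them highest in cont. mouse 3. Those most like *Yap1* were *Atrn*, *Bmp7* and *Pdxdc1* (0.96, 0.95 and 0.95). The 9 points share their libraries and 3 genotypes, so the correlations describe these mice only.

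Several of the 10 genes are made by liver cells other than hepatocytes, and markers of those cells moved as well. In bulk liver, fewer cells of a type and less RNA per cell cannot be told apart. The summed level of 8 hepatocyte markers, with *Alb* the most abundant per kilobase, was 132005, 86814 and 79471 normalized CPM in cont., 39736, 40434 and 37686 in *Atg7*-KO and 113900.0, 127054 and 110010 in knock-in mice. In *Atg7*-KO against cont., 6 of the 8 were called lower and 0 higher, in knock-in against *Atg7*-KO 6 were called higher and 0 lower, and in knock-in against cont. 1, *Cps1*, was called lower. The counts of this and the other marker lists stand beside 21.6% of all genes higher and 22.1% lower in the first comparison, 24.7% and 26.2% in the second and 6.25% and 5.34% in the third. All 8 were present in every mouse, so the tissue was liver by its defining markers. The 20 most abundant genes took 12.7% to 13.4% of counts in *Atg7*-KO livers, 19.7% to 27.7% in cont. and 21.8% to 24.99% in knock-in livers.

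Markers of bile duct and ductular cells (9 genes, 8 tested) summed to 70.3, 67.5 and 70.2 in cont., 1047, 959 and 851 in *Atg7*-KO and 212, 205 and 290 in knock-in mice, and *Cftr* and *Sctr* met the filter through the *Atg7*-KO mice alone. Of the other 6 tested, *Krt19*, *Epcam*, *Sox9* and *Spp1* were higher in *Atg7*-KO than in cont., and 3 of these were lower in knock-in than in *Atg7*-KO. *Sox9* was not among those 3, with means of 30.8 in knock-in and 25.7 in *Atg7*-KO mice, and *Epcam*, *Sox9* and *Spp1* were higher in knock-in than in cont. The sum was mostly *Spp1*, with 528 normalized CPM per kilobase in *Atg7*-KO livers, which other cells of injured liver also make, while the keratin gene *Krt19* was at 6.44 to 7.85 normalized CPM. Stellate cell and myofibroblast markers (10 genes) summed to 315, 264 and 321 in cont., 984, 1175 and 1050 in *Atg7*-KO and 455, 391.8 and 677 in knock-in mice, 8 of them higher in *Atg7*-KO than in cont. and 7 lower in knock-in than in *Atg7*-KO, with *Dcn* the most abundant per kilobase. The 3 that were higher in knock-in than in cont. were *Col1a2*, *Col3a1* and *Dcn*. Macrophage and Kupffer cell markers (10 genes) summed to 429, 355 and 291 in cont., 1165, 1137 and 1209 in *Atg7*-KO and 199, 391 and 303 in knock-in mice, 8 of them higher and 1 lower in *Atg7*-KO than in cont. and 8 lower and 1 higher in knock-in than in *Atg7*-KO, with *Lyz2* the most abundant per kilobase in *Atg7*-KO livers. Against cont., 2 were higher in knock-in mice, *Trem2* and *Gpnmb*. For these 3 cell types, as for *Wwtr1*, *Ctgf*, *Ankrd1*, *Axl* and *Ajuba*, every *Atg7*-KO mouse lay above every cont. mouse. Their part in the changes of these genes was not tested.

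Sinusoidal endothelial markers (8 genes, *Clec4g* the most abundant per kilobase) summed to 350.2 to 385 in cont., 345 to 359 in *Atg7*-KO and 172 to 210 in knock-in mice. The sum held members that went both ways, since *Lyve1* (log2 fold change 1.57), *Cdh5* (0.75) and *Pecam1* (0.62) were called higher in *Atg7*-KO against cont. and *Stab2* (-1.19) was called lower. In knock-in mice 6 were lower than in *Atg7*-KO and 5 lower than in cont. Lymphocyte markers (7 genes, 6 tested) summed to 4.99 to 11.5 in cont., 13.8 to 19.3 in *Atg7*-KO and 7.57 to 12.1 in knock-in mice, and *Cd3e* and *Cd3g* were the 2 called higher in *Atg7*-KO against cont. among the 4 that did not depend on the *Atg7*-KO mice to meet the filter. Mesothelial markers (4 genes) summed to 9.89 in cont. mouse 3 and to less in every other mouse. *Msln* was the most abundant of them per kilobase in cont. and knock-in livers and *Lrrn4* in *Atg7*-KO livers, where it was called higher than in cont. after meeting the filter through the *Atg7*-KO mice alone. Striated muscle, a tissue that makes much *Ankrd1*, had 7 markers, which summed to 0.917 to 5.86 in cont., 0.387 to 0.534 in *Atg7*-KO and 0.643 to 1.04 in knock-in mice. None of the 7 passed the filter, *Acta1* was the most abundant per kilobase in cont. and *Atg7*-KO livers and *Tnnt2* in knock-in livers, and *Myh6* and *Myl2* were at 0 in all 3 *Atg7*-KO mice. Without cont. mouse 3, 6 stellate markers and 5 of the 6 bile duct markers were higher in *Atg7*-KO than in cont., beside 20.03% of all genes. In knock-in against cont. that fit called 4 bile duct and 2 stellate markers higher, and 2 hepatocyte and 4 endothelial markers lower. Macrophage markers had 2 higher and 1 lower there, beside 5.66% of all genes higher and 5.77% lower. The part of these cell types in the levels of the 10 genes was not tested.

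**Figure D5:**
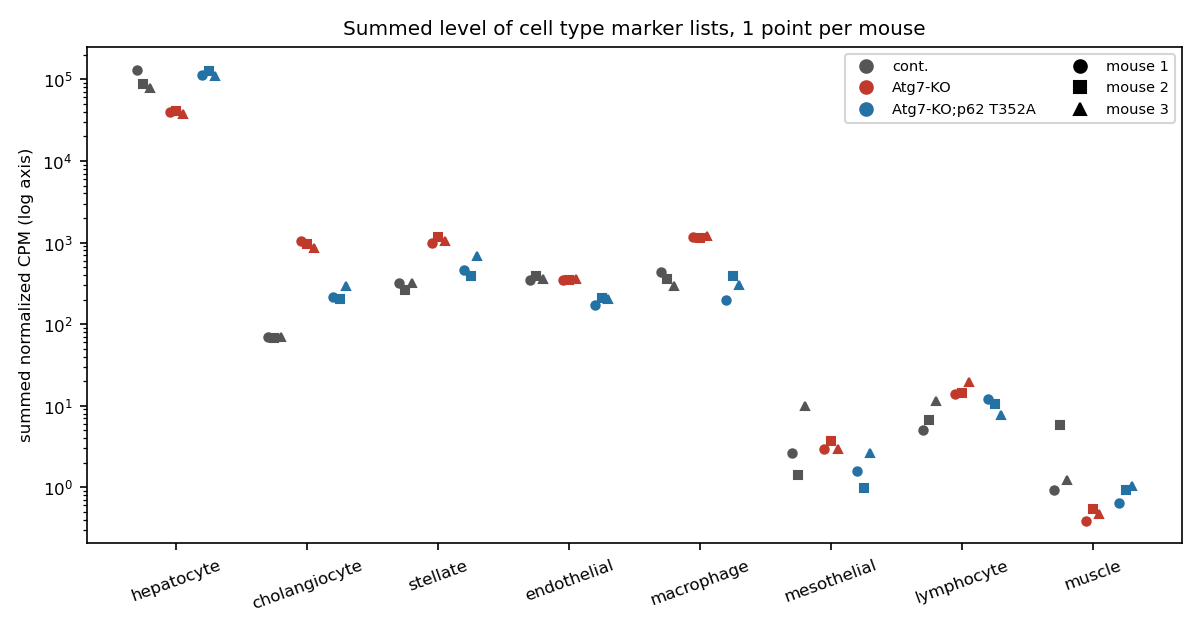
Summed normalized CPM (log axis) of 8 lists of cell type markers, 1 point per mouse, with colour for the genotype and shape for the mouse number. *Atg7*-KO mice lie lowest for hepatocyte markers (37686 to 40434) and highest for cholangiocyte, stellate and macrophage markers, and knock-in mice lie lowest for endothelial markers.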

How the data were processed

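Liver RNA of 9 mice was analysed, 3 per genotype, with genotype and mouse number taken from the labels. Labels exist for 3 further mice with p62 T352A alone, which were not analysed here. The authors deposited RSEM expected counts per gene, made from 75-bp single-end reads that Trim Galore trimmed and STAR mapped to mm10. Versions, annotation and strand setting are not given in the sources used here, and the labels and the methods name different RNA extraction kits. The expected counts were rounded to whole numbers.

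In R 4.3.3 with edgeR 4.0.16, genes were kept by filterByExpr with the genotype as group, which asked for at least 0.609 CPM in 3 mice, and 13922 of 24411 were tested. Libraries were scaled by TMM and 1 quasi-likelihood model was fitted over all mice with genotype as its term (glmQLFit, then glmQLFTest). Calls needed a Benjamini-Hochberg adjusted p under 0.05 over all tested genes and a fold change over 1.5. SEs and 95% intervals of log2 fold changes come from the quasi-likelihood F statistic and are not adjusted for the number of genes. Log2 CPM for correlations used a prior count of 2. Libraries held 9671073 to 23285134 counts. On simulated data for *Atg7*-KO against cont. the fit recovered 98.5% of 200 genes changed 4-fold, with 12 false calls among 13543 genes. The simulation gave every gene the same dispersion in every genotype and changed only genes above a minimum mean count. In the mice the spread differed by gene and genotype, so these rates do not carry over to the comparison itself.

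Positions are GENCODE vM21 (GRCm38, the build of mm10) and promoter windows RefSeq (GRCm38.p6), drawn with Python 3.11.15 and matplotlib 3.10.9. Named were the 10 genes, *Atg7*, *Sqstm1* and *Xist*, and of each pathway list the 2 largest rises and falls among called genes with a mean of at least 1 CPM. Other names were added after their values were seen. The 10 genes, the 5 pathway lists and the 8 cell type lists were chosen with earlier results of these data known. Alternatives were DESeq2 1.42.0, DESeq2's size factors, upper-quartile scaling, no filter, a minimum of 10 counts per mouse, the mouse number as a block, 2 genotypes per fit, the 20 most abundant genes left out, no fold threshold, glmTreat, the mice numbered 1 left out and each mouse left out in turn.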

Additional observations from a re-analysis of the deposited data

How the results depend on the processing

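The calls of *Wwtr1*, *Ctgf*, *Axl* and *Ajuba* between *Atg7*-KO and cont., and those of the same 4 genes and *Tead1* between knock-in and *Atg7*-KO, kept their direction and stayed past the threshold under every alternative run. Depth limits *Ankrd1*, at 13 counts or fewer in cont. mice, more than the other genes. Under upper-quartile scaling all genes had a median of 0.08 on the log2 scale for *Atg7*-KO against cont. and of -0.14 for knock-in against *Atg7*-KO, with 6 of the 10 genes called higher beside 24.2% of all genes in the first and 7 lower beside 29.7% in the second. The causes of the changes below were not tested.

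Over all genes, 6080 were called between *Atg7*-KO and cont. (3855 with glmTreat), 7095 between knock-in and *Atg7*-KO (4718 with glmTreat) and 1613 between knock-in and cont. The last count was the least stable, at 50 with only these genotypes in the fit, 253 with glmTreat and 2975 without the mice numbered 1. Of the 10 genes, DESeq2 called 1 (*Ctgf*) in that comparison, beside 15.4% of all genes, and 1 (*Tead1*) passed without the mice numbered 1, beside 21.2%. The Hippo list had 5 calls between *Atg7*-KO and cont., 3 with glmTreat (27.7% of all genes) and 8 without the mice numbered 1 (54.4% of all genes), and its 3 calls between knock-in and cont. fell to 0 in the fit of those genotypes (0.385% of all genes). The further targets had 3 calls there, and 0 both in that fit and with glmTreat (1.82% of all genes). With glmTreat, *Ankrd1* and *Lats2* were no longer called lower in knock-in than in *Atg7*-KO mice.

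Leaving out each mouse in turn gave 4587 to 7960, 5652 to 8142 and 435 to 3245 calls over all genes, 5 to 7, 5 to 7 and 0 to 2 among the 10 genes, 3 to 9, 9 to 10 and 1 to 5 in the Hippo list and 6 to 8, 8 to 9 and 0 to 4 among the further targets, in the order *Atg7*-KO against cont., knock-in against *Atg7*-KO and knock-in against cont. Over all genes the last count was 435 to 972 without cont. mouse 2, any 1 of the *Atg7*-KO mice or any 1 of the knock-in mice, and 3245 without cont. mouse 1. The Hippo list had 9 calls between *Atg7*-KO and cont. without cont. mouse 1 (56% of all genes) and 3 without any 1 of the *Atg7*-KO mice (32.5% to 33.4%), and between knock-in and cont. 5 without cont. mouse 1 (22.8%) and 1 without knock-in mouse 3 (3.07%), so these counts moved in the direction of the share over all genes. The further targets had 1 call there without cont. mouse 2 (6.01%) or 3 (11.4%), and 0 without any 1 of the *Atg7*-KO mice (5.31% to 5.52%) or knock-in mouse 1 (5.97%) or 3 (3.07%). The list of further targets in these counts held *Tgfb2*, whose call was favoured by the filter. Small differences, and the larger ones of *Cyr61*, changed sign. Between *Atg7*-KO and cont., the log2 fold change of *Yap1* ranged from -0.24 to 0.037 over the omitted mice, positive without cont. mouse 1, and was 0.060 without the mice numbered 1, and that of *Cyr61* ranged from -1.79 to 1.81. Between knock-in and cont. mice, *Yap1* ranged from -0.013 to 0.27 (-0.013, -0.0047 and -0.0051 without knock-in mouse 1, cont. mouse 2 and cont. mouse 3), *Wwtr1* from -0.19 to 0.40 (-0.19 and -0.087 without cont. mouse 2 and knock-in mouse 1), *Cyr61* from -2.14 to 1.47, *Amotl2* from -0.54 to 0.097 (positive without cont. mouse 2) and *Axl* from -0.023 to 0.29 (negative without knock-in mouse 3). *Cyr61* reversed only without cont. mouse 3.

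The genotypes share the mouse numbers 1, 2 and 3. Mice of the same number deviated from their genotype means with correlations of 0.146 on average (lowest -0.20, 9 pairs), against -0.07 for other pairs. The 3 pairs numbered 1 (0.137 to 0.271) and the 3 numbered 3 (0.181 to 0.321) were all over 0.1, but those numbered 2 (-0.20 to 0.0926) were not, and the labels give the numbers no shared litter or day, so the numbers were not taken to pair the mice. The mice numbered 1 were also those with little *Xist* in each genotype, and the main fit held no term for that. With the number as a replicate block, 988 genes (7.1%) were called between knock-in and cont., 1 of the further targets was called there, and *Tead1* passed the threshold between *Atg7*-KO and cont. (log2 fold change 0.86).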

Other observations

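The relatives of these genes were described by a list of 7, the CCN family members *Nov*, *Wisp1* and *Wisp2*, the TAM receptor genes *Mertk* and *Tyro3* and the ligand genes of those receptors, *Gas6* and *Pros1*. Of the 6 tested, *Wisp2* and *Tyro3* met the filter on low counts through the *Atg7*-KO mice alone, and *Wisp2* was at 0.22 to 0.284 normalized CPM in cont., 13.4 to 20.6 in *Atg7*-KO and 0.428 to 0.522 in knock-in mice. Of the other 4, 3 were higher and 0 lower in *Atg7*-KO than in cont. livers, beside 21.6% and 22.1% of all genes, with a median log2 fold change of 1.19. *Wisp1* rose from 1.98 to 2.18 to 7.51 to 8.71 (1.96, SE 0.32), with 2.45 to 6.33 in knock-in mice. *Gas6*, the ligand of AXL, was at 30.4, 34.5 and 69.2 in cont., 129.6, 141 and 138 in *Atg7*-KO and 35.6, 54.4 and 52.4 in knock-in mice (log2 fold change 1.61 for *Atg7*-KO against cont., SE 0.31), and *Pros1* rose by 0.78 (SE 0.16). The receptor gene *Mertk* stood at 14.2, 49.5 and 63.6 in cont., 28.2, 29.9 and 28.2 in *Atg7*-KO and 11.5, 7.99 and 9.99 in knock-in mice. Unlike *Axl*, it was not called between *Atg7*-KO and cont. and was lower in knock-in than in cont. mice (-2.11, SE 0.45), while both were lower in knock-in than in *Atg7*-KO mice (-1.55 for *Mertk* and -1.95 for *Axl*); whether the receptors differed was not tested. Between knock-in and *Atg7*-KO mice, all 4 were lower, beside 26.2% of all genes, with a median of -1.26, and against cont. 1 was lower, beside 5.34% of all genes, with a median of -0.07. Without cont. mouse 3 the median of the 4 in knock-in against cont. was 0.18, with 1 called lower, beside 5.77% of all genes. *Axl* and *Gas6* were thus both high in *Atg7*-KO mice, whose macrophage and stellate cell marker sums were high as well, and the part of those cells was not tested.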
